A study of Bos taurus with 10 samples.

Results

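MHC class I antigen presentation was read in a back muscle, the longissimus dorsi, of 10 cattle of the Korean breed Hanwoo. The genes considered were the heavy chain genes BOLA, BOLA-A, BOLA-NC1 and JSP.1, the light chain gene B2M and the peptide transporter gene TAP1. A probe set of the Affymetrix GeneChip Bovine Genome Array, a group of short probes that reads 1 transcript, was taken where the platform annotation gave it exactly 1 symbol and that symbol was one of these. This gave 5 of 24016 probe sets outside the controls, 3 for B2M, 1 for BOLA and 1 for TAP1, so 3 of the 6 genes were measured. BOLA-NC1 and JSP.1 appeared only in probe sets that list several symbols, 13 and 3 of them, and BOLA-A in none, so these 3 genes count as not measured. The samples form 1 group, animals 1 to 10, with 1 array each, and poly(A) RNA was the labelled material. The label of animal 1 gives an age of about 2 years. Per the design text, profiles were compared with beef traits of the animals. No trait was analysed here, and the comparisons are between animals and between genes. Only the sample numbers and the design text mark the samples as separate cattle, and p-values hold if they are.

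Class I molecules sit on nearly every nucleated cell and show it to cytotoxic T cells. Each is a polymorphic heavy chain paired with the invariant light chain beta-2-microglobulin, the product of B2M, and holds a peptide cut by the proteasome and carried into the endoplasmic reticulum by a transporter made of TAP1 and TAP2. In cattle the heavy chain genes are called BoLA class I, differ in number between haplotypes and vary strongly in sequence, and interferons raise the whole pathway in mammals. Muscle fibres of healthy mammals are known for low class I on their surface, while vessel and immune cells in the same tissue carry much more. In a piece of whole muscle, fewer cells of a type and less RNA per cell cannot be told apart.

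The tissue label was checked against skeletal muscle markers. Of 16 such genes 13 were measured, and all 13 had mean log2 levels between 15.22 and 16.05. The median deposited intensity per array was 111 to 134, and correlations between arrays ran from 0.901 to 0.959. Animal 5 stood apart in the poly(A) spike controls, which report labelling and not the RNA of the animal. Spiked-in poly(A) transcripts read 2.80 log2 units higher at their 3' than at their 5' end in animal 5, and 1.09 to 1.38 units higher in the remaining 9 animals. This gap is called the poly(A) control difference. Results that turn on animal 5 are therefore also given without it.

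Levels below are quantile normalized log2(intensity + 16), which shrinks differences of dim probe sets, and no level of one probe set is read against that of another. The word brightest only names the probe set of a gene with the highest signal. All 5 probe sets passed the filter on dim signal, a mean above 6.98, together with 12008 probe sets in all. The median SD between animals was 0.48 over the 5 and 0.38 over the 12008. Without animal 5 these were 0.28 and 0.33.

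B2M gave a strong signal in every animal. Its brightest probe set, Bt.5269.2.S1_a_at, ran from a deposited intensity of 6058 in animal 5 through a median of 23159 to 25081 in animal 3, a 4.14-fold range. On the log2 scale it stood at 14.23 ± 0.62 (SD, n = 10). Animal 5 was alone at 12.56, while the other 9 animals lay between 14.05 and 14.72, and without animal 5 the SD was 0.21.

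The second B2M probe set, Bt.5269.1.S1_at, placed animal 5 at the opposite end. Its intensity ran from 12036 in animal 2 through a median of 18858 to 21706 in animal 8, a 1.80-fold range, and its log2 level was 14.14 ± 0.32. Animal 5 was highest at 14.67 and animals 2 and 10 were lowest at 13.73 each. The third, Bt.5269.2.S1_at, ran from 5993 in animal 5 through a median of 9456 to 11811 in animal 7, a 1.97-fold range, with a log2 level of 13.16 ± 0.34. Here animal 5 was lowest at 12.54 and animal 10 next at 12.79, so animal 5 was less far from the rest than on the brightest probe set.

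**Figure D1:**
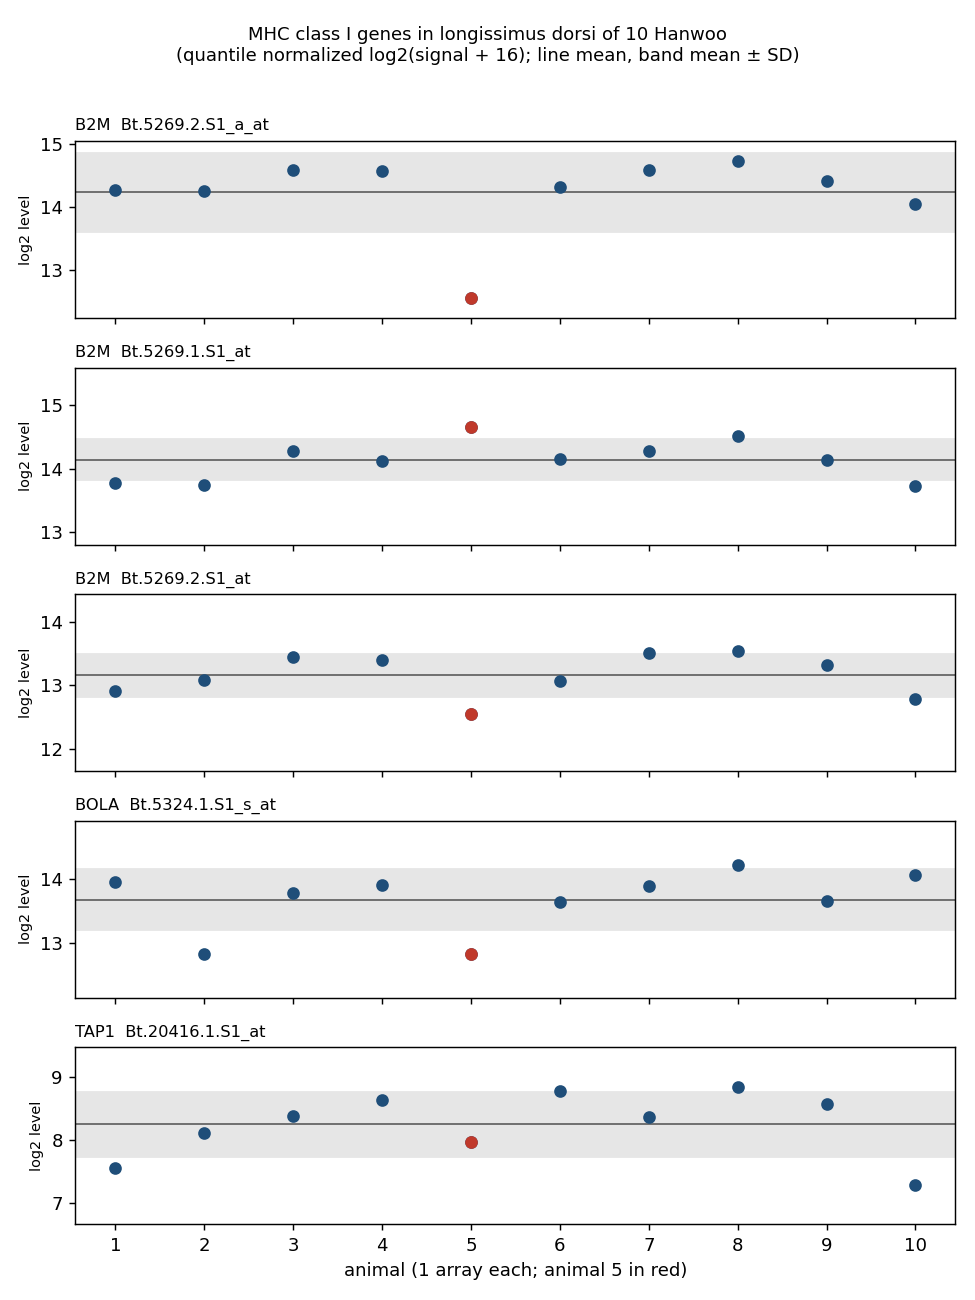
Log2 level of each class I probe set in each animal, 1 panel per probe set with its own vertical range of equal height. Points are single arrays, the line is the mean and the band the mean ± SD over 10 animals. Animal 5, in red, is lowest on the brightest B2M probe set (12.56) and highest on the second (14.67).

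Across the other 9 animals the B2M probe sets moved together. The brightest had r = 0.906 with the second and r = 0.966 with the third over these 9 animals, against -0.305 and 0.848 over all 10. These values describe probe sets of 1 gene on the same arrays and carry no p. The probe set names hold cluster number 5269.1 for the second and 5269.2 for the brightest and the third. Whether the cluster has a part in the place of animal 5 was not tested. After quantile normalization animal 8 was highest on the brightest and the third and next to highest on the second, and animal 10 was lowest or next to lowest on all 3. In the deposited intensities the order differed, with animal 3 highest on the brightest, animal 8 on the second and animal 7 on the third, and animal 2 (16281) below animal 10 (18921) on the brightest.

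BOLA, a class I heavy chain gene, was low in 2 animals. Its probe set, Bt.5324.1.S1_s_at, is of a type whose probes match more than 1 transcript, so its signal may join several heavy chain loci. Intensity ran from 6912 in animal 5 and 6979 in animal 2 through a median of 14648 to 19112 in animal 10, a 2.76-fold range. The log2 level was 13.68 ± 0.48, with animals 5 and 2 at 12.82 and 12.83, and the remaining 8 animals at 13.64 to 14.23. Animal 2 had an ordinary poly(A) control difference of 1.18. Allele differences can change how well probes bind, and their part in the BOLA values was not tested. The gene identifier that the annotation gives for this probe set has no entry in the ARS-UCD2.0 gene table, in which BOLA belongs to another identifier.

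TAP1, a subunit of the peptide transporter, was lowest in animals 10 and 1. Its intensity ran from 151 in animal 10 through a median of 315 to 447 in animal 8, a 2.97-fold range, and its log2 level was 8.25 ± 0.52. Animals 10 and 1 stood at 7.29 and 7.56, animal 5 at 7.97, and the other 7 between 8.11 and 8.85. Animals 1 and 10 also had the 2 highest hybridization control levels, 13.14 and 13.11 log2 units, and the remaining 8 were lower, down to 11.18. Animal 6 came next at 13 log2 units and had the second highest TAP1 level, 8.78. The correlation of TAP1 with the hybridization control level over all animals is given below. The part of that level in the TAP1 values was not tested. The SDs of TAP1 and BOLA lay at the 76.6 and 71.6 percentiles of all tested probe sets, those of the 3 B2M probe sets at the 87.5, 33.0 and 37.7 percentiles.

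Whether heavy chain, light chain and transporter transcripts varied together was tested over the animals. No pair passed. The brightest B2M probe set and BOLA had r = 0.669 (permutation p = 0.0421 and 0.189 after adjustment over 9 relations; Spearman's rho = 0.438, permutation p = 0.207 and 0.442 after adjustment, n = 10). This relation rested on animal 5, since r was 0.316 without animal 5 and 0.114 without the 2 animals farthest from the B2M median, 5 and 8. B2M and TAP1 had r = 0.422 (permutation p = 0.225 and 0.404 after adjustment; Spearman's rho = 0.717, permutation p = 0.0233 and 0.210 after adjustment). Here r was 0.765 without animal 5 and 0.714 without animals 5 and 8. BOLA and TAP1 had r = 0.094 (permutation p = 0.813 and 0.813 after adjustment; Spearman's rho = 0.055, permutation p = 0.894 and 0.894 after adjustment), and -0.292 without animals 2 and 5.

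**Figure D2:**
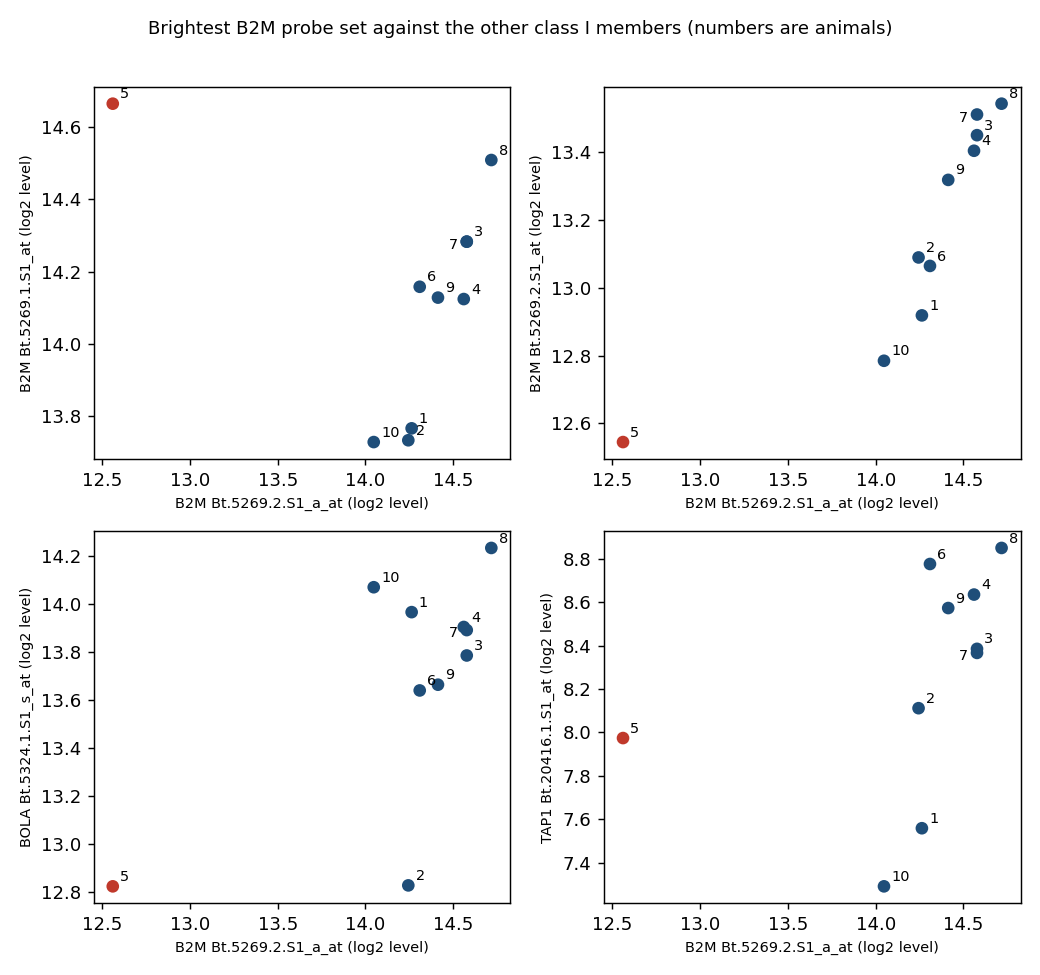
Log2 level of the brightest B2M probe set (horizontal) against the other 2 B2M probe sets, BOLA and TAP1 (vertical), 1 point per animal with its number. Without animal 5, in red, r with the brightest B2M probe set is 0.906 for Bt.5269.1.S1_at and 0.966 for Bt.5269.2.S1_at. Over the same 9 animals r is 0.765 for TAP1 and 0.316 for BOLA. Neither TAP1 nor BOLA passed, over 10 animals (permutation adjusted p = 0.404 and 0.189) or over these 9 (0.127 and 0.513).

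The same genes were set against the array measures. Between B2M and the poly(A) control difference r was -0.948 (permutation p = 0.0218 and 0.189 after adjustment; Spearman's rho = -0.383, permutation p = 0.273 and 0.442 after adjustment), and r = -0.367 without animals 5 and 8. BOLA had r = -0.569 with it (permutation p = 0.151 and 0.339 after adjustment; Spearman's rho = -0.103, permutation p = 0.784 and 0.882 after adjustment), and 0.178 without animals 2 and 5. TAP1 had r = -0.235 (permutation p = 0.519 and 0.584 after adjustment; Spearman's rho = -0.370, permutation p = 0.294 and 0.442 after adjustment), and -0.597 without animals 1 and 10. With the hybridization control level, B2M had r = -0.313 (permutation p = 0.434 and 0.573 after adjustment; Spearman's rho = -0.401, permutation p = 0.253 and 0.442 after adjustment) and BOLA r = 0.269 (permutation p = 0.446 and 0.573 after adjustment; Spearman's rho = 0.139, permutation p = 0.710 and 0.882 after adjustment). Without the 2 farthest animals these were -0.403 and -0.040. TAP1 had r = -0.512 with the hybridization level (permutation p = 0.133 and 0.339 after adjustment; Spearman's rho = -0.503, permutation p = 0.145 and 0.442 after adjustment), and 0.071 without animals 1 and 10, so that relation rested on these 2 animals.

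Each gene was then used as covariate in a limma fit over every tested probe set, which asks which transcripts rise or fall with it across the animals. With the brightest B2M probe set, 595 of 12005 probe sets rose and 266 fell at a Benjamini-Hochberg adjusted p below 0.05, 7.17% in all (4.96% rising and 2.22% falling). Without animal 5 no probe set passed, and 1075 had an unadjusted p below 0.05. Animal 5 held the highest or the lowest level in 860 of the 861 called probe sets (99.9%) and in 47.4% of all tested ones. A Spearman correlation per probe set called 0, with 718 at an unadjusted p below 0.05.

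None of the class I genes passed in any of the 3 limma fits over all animals. With the brightest B2M probe set the slope of BOLA was 0.32 log2 per SD (SE 0.12, adjusted p = 0.123), that of TAP1 0.22 (SE 0.15, adjusted p = 0.401), that of the third B2M probe set 0.29 (SE 0.082, adjusted p = 0.0544) and that of the second -0.098 (SE 0.11, adjusted p = 0.628). Without animal 5 these 4 slopes were 0.13, 0.41, 0.27 and 0.25, with adjusted p from 0.472 to 0.793. The sign of the second B2M probe set thus depends on animal 5. The SD unit is that of the animals in each fit. With and without animal 5 it was 0.62 and 0.21 for B2M, 0.48 and 0.40 for BOLA, and 0.52 and 0.54 for TAP1. Here and below, slopes with and without animal 5 are therefore compared by sign and adjusted p, not by size. With BOLA as covariate the B2M probe sets had slopes of 0.41, -0.029 and 0.17 and TAP1 had 0.049, with adjusted p from 0.610 to 0.946. Without animal 5 these were 0.067, 0.12, 0.049 and -0.016. With TAP1 as covariate the B2M probe sets had 0.26, 0.18 and 0.24 and BOLA had 0.046, with adjusted p from 0.620 to 0.986. They were 0.16, 0.23, 0.21 and -0.012 without animal 5. The fits share their covariates, so each pair appears in more than 1 of them.

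With BOLA as covariate, 0 of 12007 probe sets (0%) passed in limma, with 973 at an unadjusted p below 0.05, and Spearman correlation called 0, with 603. Without animal 2, the limma count was 124, of which 107 rose and 17 fell. Animal 5 was at an end of the 9 values in all 124, and without both animals the count was 0. With TAP1, 0 of 12007 (0%) passed in limma, with 882 at an unadjusted p below 0.05, and Spearman correlation called 0, with 586. Without animal 5, 4 probe sets rose with TAP1 (0.0333%), with limma slopes from 0.56 to 1.02 and adjusted p from 0.0359 to 0.0372. These are Bt.8866.1.S1_at, Bt.16861.1.A1_at, Bt.24868.1.A1_at and Bt.10066.1.S1_at, named here because they were the only ones, and the annotation lists no gene for any of them.

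Other genes of the pathway, from a list of 35 of which 24 were measured and 19 tested, supply peptides, load them or control transcription. With B2M, 3 of the 19 rose (PSMB8, PSME1 and PSME2) and 1 fell (CANX), beside 4.96% rising and 2.22% falling among all tested probe sets, and 0 did so without animal 5. PSMB8, a catalytic subunit of the immunoproteasome, had a slope of 0.55 (SE 0.12, limma adjusted p = 0.0217), which was 0.33 without animal 5 (adjusted p = 0.512). PSME1 and PSME2, both subunits of the PA28 proteasome activator, had slopes of 0.31 and 0.41 (limma adjusted p = 0.0351 and 0.0286), and -0.029 and -0.069 without animal 5. PSME1 stood at 10.01 in animal 5, against 10.94 to 11.21 in the other 9, and PSME2 at 9.63, against 10.80 to 11.29. CANX, the chaperone calnexin that holds new heavy chains, had -0.42 (limma adjusted p = 0.0421) and 0.12 without animal 5. It stood at 12.76 in animal 5, against 10.92 to 11.53 in the others.

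**Figure D3:**
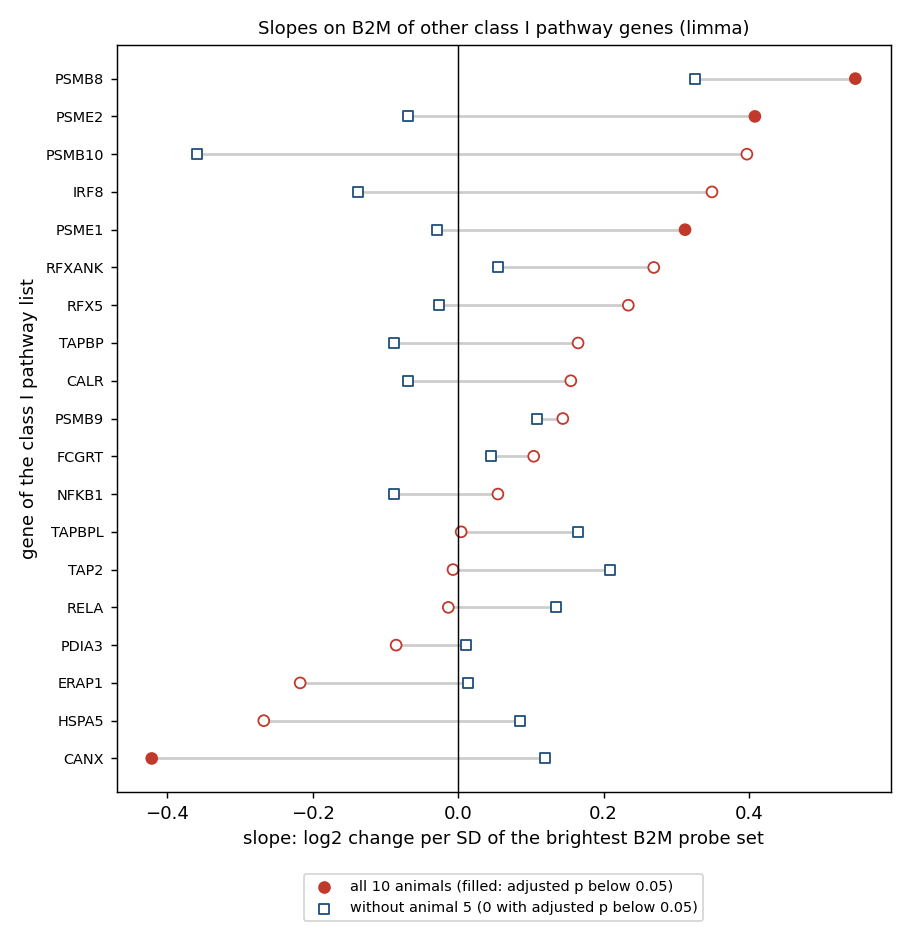
Slope of each of 19 tested class I pathway genes on the brightest B2M probe set, in log2 change per SD, over all 10 animals (circles, filled where the limma adjusted p is below 0.05) and without animal 5 (squares). The SD is that of the animals in each fit, 0.62 with and 0.21 without animal 5, so circles and squares are compared by sign only. Of the 4 filled circles, PSME2, PSME1 and CANX have squares across 0, and PSMB8 keeps its sign.

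The partner of TAP1 and its neighbours were then read. TAP2, the other transporter subunit, had a level of 9.01 ± 0.33 (SD, n = 10) and a limma slope of 0.20 with TAP1 (SE 0.10, adjusted p = 0.723). In the ARS-UCD2.0 gene table TAP1 lies directly between PSMB8 and PSMB9, which encode immunoproteasome subunits. Their slopes with TAP1 were 0.39 (adjusted p = 0.620 in limma) for PSMB8 and 0.0066 (adjusted p = 0.995) for PSMB9, and 0.33 and -0.017 without animal 5. PSMB8 stood at 6.45 in animal 5 and 6.71 in animal 10, and at 7.99 to 8.27 in the remaining 8 animals. PSMB10, the other inducible catalytic subunit, had -0.28 with TAP1 and 0.40 with B2M (adjusted p = 0.847 and 0.193 in limma). Without animal 5 these were -0.41 and -0.36 (adjusted p = 0.182 and 0.472), so the sign with B2M turned. TAPBP, or tapasin, which bridges heavy chain and transporter, had a level of 9.83 ± 0.25 and slopes of 0.17 with B2M, 0.094 with BOLA and -0.023 with TAP1, which were -0.088, -0.044 and -0.066 without animal 5. CALR (9.08 ± 0.46), PDIA3 (10.69 ± 0.16) and HSPA5 (11.93 ± 0.36), chaperones of the endoplasmic reticulum, did not pass in any fit, nor did ERAP1, which trims peptides.

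Among the regulators, RFX5 and RFXANK, parts of the complex that binds MHC promoters, had slopes of 0.23 and 0.27 with B2M (limma adjusted p = 0.326 and 0.0685), and neither passed. Their slopes were -0.026 and 0.055 without animal 5. FCGRT, the heavy chain of the neonatal Fc receptor and another partner of beta-2-microglobulin, stood at 12.14 ± 0.37 with slopes of 0.10 with B2M and 0.23 with TAP1 (limma adjusted p = 0.644 and 0.691), which were 0.045 and 0.23 without animal 5. Over the 19 genes the median slope was 0.14 with B2M, 0.094 with BOLA and 0.0066 with TAP1, and 13, 11 and 11 slopes were above 0 (11, 10 and 11 without animal 5). Over all 12007 tested probe sets these medians were -0.0040, -0.0032 and 0.0066, with 49.2%, 49.2% and 52.0% above 0. Without animal 5 the medians over the 19 were 0.014, 0.012 and 0.012. With BOLA and TAP1 as covariates 0 of the 19 passed.

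Interferon response genes gave no call with TAP1 or BOLA. Of 40 in the list 25 were measured and 11 tested, and 10 of the 11 slopes with TAP1 were above 0, 8 without animal 5, beside 52.0% of all probe sets (50.6% without animal 5). USP18, which removes ISG15 from proteins, and IFIT5, an RNA-binding antiviral protein, had slopes of 0.29 and 0.27 with TAP1 (limma adjusted p = 0.727 and 0.715). DHX58, a sensor of viral RNA, had the lowest at -0.045. With B2M 1 of 11 rose, beside 4.96% of all probe sets. It was IFITM1, an antiviral membrane protein, at 0.64 (SE 0.12, limma adjusted p = 0.0134), which was 0.032 without animal 5. The class II genes, which present peptides from outside the cell, had 5 of 16 tested and 0 called in any fit. BOLA-DRA, an alpha chain gene, stood at 9.94 ± 0.47 and had a slope of 0.37 with B2M (limma adjusted p = 0.0514), which was -0.039 without animal 5.

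Markers of other cell types were read beside these genes. Of 34 leukocyte markers 31 were measured and 13 tested, and 1 rose with B2M, near the 4.96% of all probe sets. It was LAPTM5, a lysosomal membrane protein of blood cells, at 0.49 (limma adjusted p = 0.0351; -0.015 without animal 5). The slopes of 12 of the 13 with B2M were above 0, and of 5 without animal 5. With BOLA 13 of 13 were above 0, and 11 without animal 5, with 0 called in either. Over all probe sets 49.2% of slopes were above 0 with B2M and with BOLA. The mean deviation of the 13 leukocyte markers from their own means was -0.83 in animal 5, below all the other 9 animals, whose lowest was -0.45. Animal 5 was also below all others for the class I pathway genes (-0.32 against -0.055) and the class II genes (-0.58 against -0.36). These are means over mixed genes, and some in both lists, such as CANX and BOLA-DQA2, were above their own means in animal 5. Over all tested probe sets the mean deviation in animal 5 was -0.0235. Connective tissue and adipocyte markers had -0.71 and -0.77 in animal 5, with lowest values of -1.01 and -0.87 in other animals. In the remaining lists animal 5 was not lowest either. The macrophage oxidase gene CYBB had the largest leukocyte slope with TAP1 after CD68, 0.50 against 0.56, and neither passed (limma adjusted p = 0.312 and 0.456).

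No connective tissue gene passed with TAP1. All 13 tested of 17 had slopes above 0 (12 without animal 5), beside 52.0% of all probe sets, with a median of 0.50 against 0.0066 over all probe sets. The largest was LUM, the collagen-binding proteoglycan lumican, at 0.82 (SE 0.15, limma adjusted p = 0.156), followed by FMOD at 0.78 (adjusted p = 0.429). With B2M 1 of the 13 rose, beside 4.96% of all probe sets. It was DCN, the proteoglycan decorin, at 0.67 (limma adjusted p = 0.0262; 0.17 without animal 5, adjusted p = 0.777). All 7 tested of 10 adipocyte markers had slopes above 0 with TAP1, from 0.0082 for CFD to 1.05 for ADIPOQ, beside 52.0% of all probe sets, and 0 passed. Without animal 5 it was 6 of 7, with CFD at -0.10. With B2M 1 of the 7 rose, beside 4.96% of all probe sets. It was CIDEA, a lipid droplet protein, at 0.67 (limma adjusted p = 0.0105; 0.089 without animal 5). EMCN, an endothelial surface sialomucin, stood at 10.07 ± 0.25. No endothelial marker of 13 tested passed in any fit, with 10, 11 and 9 slopes above 0 for B2M, BOLA and TAP1 (8, 11 and 8 without animal 5). Of the skeletal muscle markers 0 of 13 passed, with 7, 8 and 3 above 0 (6, 8 and 5 without animal 5). The SDs of these 13 were small, 0.040 to 0.17 against a median of 0.38 over all tested probe sets. Little change could therefore be seen in them. The only tested red cell marker, HBA, a hemoglobin gene, had slopes of -0.061, 0.046 and -0.13. The part of these cell types in the class I values was not tested.

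The genes whose pattern was most like each class I gene were named by Pearson r over the 10 animals, as a description. For TAP1 the 10 most alike were OCIAD2 (r = 0.942), ABHD11 (0.910), LOC788425 (0.90), DYNLT3, CYBB, MED18, TMEM68, LUM, IVD and NTRK2, down to 0.873. The 5 most opposed were NHEJ1 (-0.932), RNF4 (-0.917), HACL1 (-0.906), SSRP1 and NUPR2. Without animal 5 the first 10 kept r from 0.871 to 0.945 and the 5 from -0.930 to -0.903, and animal 5 was at no end of any of these 15 genes. None passed in limma, with adjusted p from 0.101 to 0.739.

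For BOLA the 10 most alike were DHPS (r = 0.896), MED31 (0.866), AP5S1 (0.859), DDX41, SDHAF1, MAOB, OPTN, EEF2K, SERF1B and CUX1, down to 0.830. Those most opposed were TMEM165 (-0.891), THRA (-0.874), AKIRIN1, TMEM135 and RPS12. Animal 5 was the lowest or highest in 7 of the 10 and in 3 of the 5. Without animal 5 these r ranged from 0.713 to 0.890 and from -0.832 to -0.770. Over all 10 animals the limma adjusted p was 0.610 to 0.624 for all 15. For the brightest B2M probe set they were METTL3 (r = 0.985), ING4 (0.971), OXLD1 (0.970), PPP1R11, ARMC6, SF3B5, NDUFA13, METTL18, FH and ATP5MF, and on the opposed side R3HDM2 (-0.967), TDRD3 (-0.962), RALGAPB, PPM1D and RNF31. Animal 5 was the lowest or highest in all 15, and without it r ranged from 0.537 to 0.872 and from -0.761 to -0.158.

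Among the 595 probe sets that rose with B2M, the steepest with a gene name were RNASE6, a ribonuclease of immune cells, at 1.13 (SE 0.26, limma adjusted p = 0.0248), FRMD3 at 0.995 and ADGRE5, an adhesion receptor of leukocytes, at 0.98. NOP2, MRPS14, MRPS18A, RPS9, DPM2, SLC7A6OS, NABP2, ALG14 and HOXA9 followed, with slopes of 0.86 to 0.96. Among the 266 that fell, EGR1, an early response transcription factor, had -1.32 (SE 0.29, limma adjusted p = 0.0217), LOC515676 -1.27 and FOS, another early factor, -1.11. PDLIM3, NR4A2, CCN1, INHA, PRKACB, ETS2, SPATA24, NFIB and JUN followed, from -0.98 to -0.66. Animal 5 was at an end in all 24 genes, and without it the adjusted p ranged from 0.472 to 0.989.

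The BOLA values were also set beside the 20 probe sets that list several symbols, at least 1 of them a class I gene considered here. These are known only by their probe set name. Of the 20, 11 passed the filter, and 5 of these 11 (45.5%) had an SD over 1, against 1.71% of all tested probe sets. Over all 20, filtered or not, 7 (35%) had an SD over 1. Among the 5, Bt.29824.1.S1_s_at passed on its mean, although it lay below the filter of 6.98 in animals 2, 3, 5 and 8. None of the 5 single-symbol probe sets had an SD over 1, but only 1 of them, BOLA, reads a heavy chain. The 4 probe sets Bt.7773.1.S1_x_at, Bt.8121.1.S1_x_at, Bt.27283.1.S1_x_at and Bt.2592.1.A1_x_at were lowest in animals 5 and 9. All 4 are among the 5 that passed the filter with an SD over 1 and list the same symbols, so they need not be separate observations. On Bt.8121.1.S1_x_at, for example, animals 5 and 9 stood at 7.43 and 8.43, and the remaining 8 at 11.98 to 13.75. In animal 9 the single-symbol BOLA probe set was at 13.66, within the range of the other animals. The poly(A) control difference of animal 9 was 1.22.

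**Figure D4:**
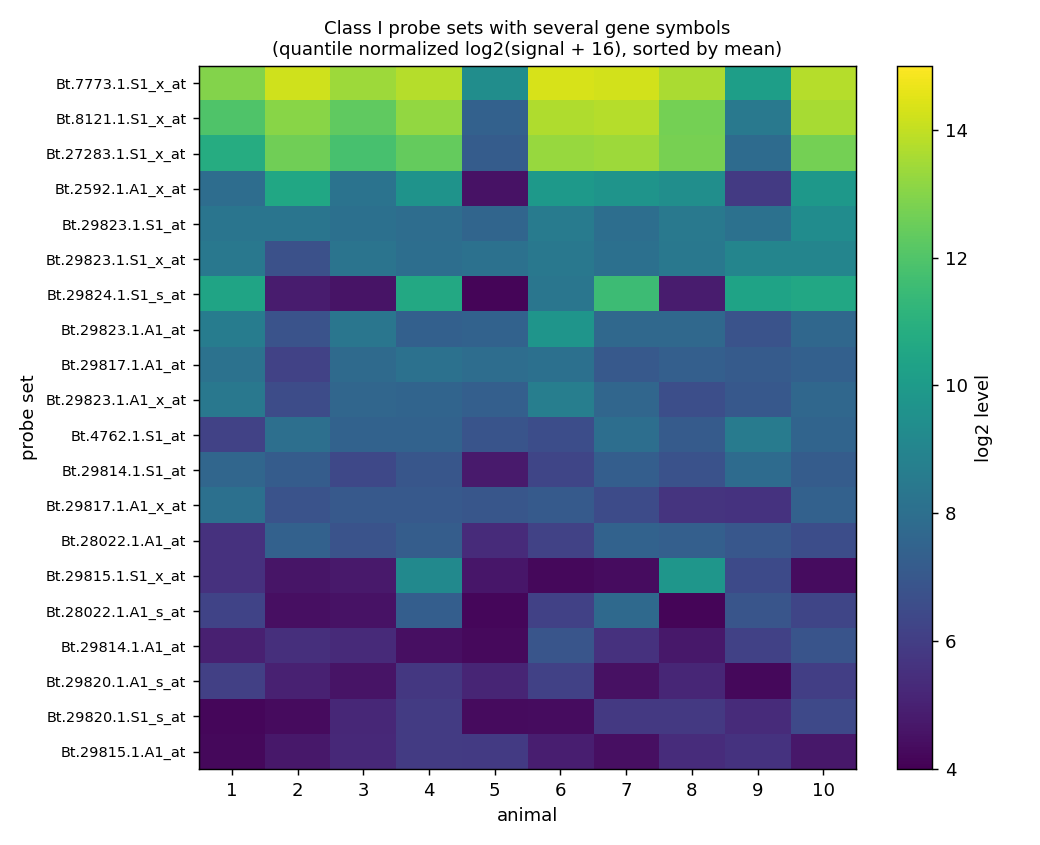
Log2 level (colour) of the 20 class I probe sets with several gene symbols in each animal, sorted by mean. The bright probe sets at the top are low in animals 5 and 9 (7.43 and 8.43 on Bt.8121.1.S1_x_at), and Bt.29824.1.S1_s_at is at 4.15 to 4.85 in 4 animals and 8.30 to 11.52 in 6.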

How the data were processed

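The values are those of 10 arrays of bovine longissimus dorsi. Per the labels' protocols, poly(A) RNA was purified from Trizol total RNA and labelled with biotin. The authors deposited 1 linear intensity per probe set and array. No source used here names the software. The deposited medians on the log2(intensity + 16) scale spanned 0.24, above a limit of 0.2, so values were quantile normalized in limma 3.58.1 (R 4.3.3). Control probe sets (112) were dropped. Of the remaining 24016, 13292 had 1 symbol, 86 several and 10638 none listed. Probe sets above the median of mean level (6.98) were tested.

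Fits used lmFit and eBayes with the covariate in SD units, and Benjamini-Hochberg adjustment over all tested probe sets at 0.05. The SD was taken over the animals in each fit, so slope sizes from fits that leave out animals are in another unit. The covariate's own probe set was left out, and other probe sets of its gene were left out of the counts. Correlations over 10 animals were tested by two-sided permutation (100000 resamples, or every permutation for 9 or fewer animals). The 9 relations between genes and array measures were adjusted together. List genes were read on their brightest probe set. Simulated data with known slopes were used to test the fits.

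The genes, lists (class I pathway, interferon, class II, leukocyte, endothelial, connective tissue, adipocyte, skeletal muscle and red cell) and tests were chosen with earlier results of these data known. Named genes are the 10 most alike and 5 most opposed by r in each fit, up to 12 called genes per direction with the steepest slopes, and for each list the brightest, those at the ends of the slopes and called ones. The number of arrays limits the precision. Alternatives were other scalings, pseudocounts, filters, covariates, priors and animals left out.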

Additional observations from a re-analysis of the deposited data

Results flagged for a closer look

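The brightest B2M probe set was 12.56 in animal 5, and its gap to the next animal was 0.689 of the whole range, above the limit of 0.466 for 10 samples. Such a limit is passed by chance in about 5% of groups, and 5 probe sets were examined. Animal 5 also had the highest poly(A) control difference, 2.80, and its part in this value was not tested. The second B2M probe set was highest in animal 5, at 14.67.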

How the results depend on the processing

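With the brightest B2M probe set as covariate, 861 probe sets passed, and leaving out each animal in turn gave 0 to 1015. The count was 567 with arrays centred on the median and 49 with no filter. It was 0 without animals 3, 5 and 7, with the poly(A) difference as covariate, with Spearman correlation, with the mean of the 3 B2M probe sets, and with either of the other 2 B2M probe sets, the last chosen after seeing the data. With deposited scaling, pseudocounts of 1 and 64, a filter at the 75th percentile and another variance prior it was between 871 and 1120. The poly(A) difference had r = -0.948 with the brightest B2M probe set. A fit that holds both can barely separate them, so its 0 calls and its slopes on B2M decide nothing. With BOLA the count was 0 to 124 over the animals left out. With TAP1 it was 0 to 4, where 1 passed without animal 10, and 4 with the poly(A) difference as covariate.

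The r of B2M and BOLA was 0.316 to 0.859 over the animals left out, with an adjusted p of 0.0293 without animal 10 (r = 0.731), and over all alternatives the adjusted p ran to 0.557. The r of B2M and TAP1 was 0.352 to 0.765, and that of BOLA and TAP1 -0.082 to 0.383 and -0.038 without animals 3, 5 and 7. BOLA against the array measures turned sign too, to 0.414 without animals 3, 5 and 7 and between -0.857 and 0.307 over the animals left out for the poly(A) difference, and between -0.144 and 0.494 for the hybridization level. The slope of the second B2M probe set on the brightest (-0.098) was 0.26 without animals 3, 5 and 7, 0.68 with the poly(A) covariate, 0.067 on the mean of the probe sets, 0.058 on the third probe set and -0.148 to 0.252 over the animals left out, and its Spearman rho was 0.406. Its slope on BOLA (-0.029) was 0.048 with deposited scaling, 0.020 with centring, 0.124 without animals 3, 5 and 7, 0.106 with the poly(A) covariate and -0.158 to 0.117 over the animals left out. The slope of BOLA on B2M was -0.043 with the second B2M probe set as covariate. The slopes of TAP1 on BOLA and of BOLA on TAP1 were -0.024 and -0.018 without animals 3, 5 and 7, -0.030 and -0.020 with the poly(A) covariate, and over the animals left out -0.041 to 0.159 and -0.0385 to 0.189. The causes were not tested, other than that fewer animals enter some fits. The third B2M probe set passed on the brightest with a pseudocount of 64, a filter at the 75th percentile or another variance prior (adjusted p = 0.0440, 0.0228 and 0.0206). Mean levels of the 5 probe sets moved by less than 1 SD under all alternatives run.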

Other observations

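Among class I probe sets with several symbols, some differed by several log2 units between animals. Bt.29824.1.S1_s_at had the largest SD of the 20, 3.07, and stood at 10.43 in animal 1, 10.66 in animal 4, 8.30 in animal 6, 11.52 in animal 7, 10.40 in animal 9 and 10.61 in animal 10. It stood at 4.85 in animal 2, 4.57 in animal 3, 4.15 in animal 5 and 4.84 in animal 8. Bt.28022.1.A1_s_at was also lowest in animals 2, 3, 5 and 8, at 4.14 to 4.53, and at 6.12 to 7.74 in the other 6. Bt.28022.1.A1_at, which lists the same symbols, did not share this order. It was at 7.41, 6.82 and 7.32 in animals 2, 3 and 8, and lowest in animal 5 at 5.37. Bt.29815.1.S1_x_at was at 9.23 in animal 4 and 9.78 in animal 8 and at most 6.48 in the other 8. Bt.29824.1.S1_s_at passed the filter on dim signal, and Bt.28022.1.A1_s_at, Bt.28022.1.A1_at and Bt.29815.1.S1_x_at did not.

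BOLA-N, a symbol that the annotation gives to another gene identifier than BOLA, had 1 probe set, Bt.3805.1.S1_at, at 12.73 ± 0.91 (SD, n = 10). It was lowest in animals 6 and 5, at 11.14 and 11.25, and between 12.45 and 13.88 in the others. BoLA, written with another case and belonging to another gene, had Bt.27760.1.S1_at at 8.73 ± 0.67, lowest in animal 5 at 7.30. The ARS-UCD2.0 gene table holds BoLA-N as a synonym of BOLA, so which locus each of these probe sets reads, and whether BOLA-N and BOLA are separate genes here, is not settled. The BOLA probe set was lowest in animals 5 and 2, and whether any of these patterns follows haplotypes was not tested.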
